A study of Mus musculus with 8 samples.

Results

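The genes described here are the nuclear-encoded subunits of the mitochondrial respiratory chain and ATP synthase, together with the assembly factors whose symbols share their prefix. They were taken from the gene table by symbol: every protein-coding gene whose name begins with Nduf followed by a, b, c, s or v, with Uqcr or Atp5, or with Cox4 to Cox8 followed by a, b or c, and the genes Sdha, Sdhb, Sdhc and Sdhd. This gave 92 of the 55114 genes in the table. They comprise 36 complex I subunits, 8 complex I assembly factors (the Ndufaf genes), 4 subunits of complex II, 8 of complex III, 18 of complex IV and 18 of complex V, with Ndufa4 counted in complex IV. The name rule itself uses no measured value, although the gene set was picked with earlier results of these data known. Another 13 rows match the names but carry another biotype, 12 of them processed pseudogenes, and were not members. The names leave out Cox4i1, Cox4i2 and Cyc1, which are given as partners where they bear on a result.

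The RNA came from intestinal crypts that were released with EDTA from C57BL/6 mice aged 8 weeks. The 4 KO mice carried a constitutive Mex3a deletion (genotype Mex3a-/-), which removes the gene's first exon and part of the next in every tissue, and the 4 WT mice were littermate controls labelled Ctrl. Mex3a encodes an RNA-binding protein of intestinal stem cells, and the study asked what its loss does to the crypt transcriptome. The libraries held between 20324184 and 30654105 reads assigned to genes. Replicates 1 and 2 of each genotype carried Y-linked transcripts and replicates 3 and 4 carried Xist. Crypt cell markers were abundant: the summed level of 10 stem cell genes lay between 1194 and 1841 FPKM (the authors' unit, a fragment density corrected for gene length and sequencing depth), and that of 9 Paneth cell markers between 12390 and 84020 FPKM. The sum of 12 enterocyte markers, 992 to 5844 FPKM, exceeded that of the stem cell genes in WT mouse 4 and KO mice 2, 3 and 4. Markers of tissues outside the epithelium were low, with sums of at most 16.8 FPKM for immune cells, 6.96 for striated muscle, 5.34 for blood, 4.53 for stroma, 0.952 for smooth muscle and 0.298 for brown fat in any mouse. In whole crypts a lower count of a transcript cannot be told apart from fewer cells of the type that makes it.

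The respiratory chain passes electrons from NADH through complex I, or from succinate through complex II, to ubiquinone, then through complex III and cytochrome c to complex IV, where oxygen is reduced. Complexes I, III and IV pump protons, and complex V, the ATP synthase, uses their return to make ATP. Complex II is built wholly from nuclear genes, whereas the other complexes combine nuclear subunits with a few encoded by the mitochondrial genome. In the gut, crypt base stem cells are known for active mitochondria, and differentiation of absorptive cells is accompanied by further mitochondrial growth.

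Nuclear respiratory genes are known for promoters that bind NRF1, ETS-family factors such as GABPA, and YY1, so their start regions were examined for these letters. A RefSeq promoter window of GRCm38.p6, running from 250 bases before the start of a gene to 50 after it, was found for 77 members, and 15 had no entry. The NRF1 motif GCGCANGCGC, searched on both strands, was present in 20 of 81 member windows (24.7%), in 9.35% of the windows of protein-coding genes tested and in 4.60% of all windows. The YY1 motif ATGGCGG was present in 16.0% of member windows, 7.47% of those of the genes tested and 4.06% of all. For the ETS motif CCGGAAG the shares were 22.2%, 16.6% and 8.86%, and for the TATA box letters TATAAA they were 9.88%, 7.76% and 13.6%. A match describes letters and is no evidence of binding. The sequences below show an NRF1 match from each complex, in capitals, on the strand of the gene and read 5′ to 3′.
Ndufa8 (complex I, chr2:36049351-36049376, minus strand): agagcagtGCGCTTGCGCgtcgctgg
Sdhd (complex II, chr9:50603911-50603936, minus strand): gctggggtGCGCACGCGCggtggcag
Uqcrc1 (complex III, chr9:108936670-108936695, plus strand): tccgctctGCGCATGCGCagcgcggc
Cox6a1 (complex IV, chr5:115349103-115349128, minus strand): ggaacgggGCGCATGCGCgctctcgc
Atp5c1 (complex V, chr2:10080432-10080457, minus strand): gagctcccGCGCACGCGCactgagtc
Tested genes with this match covered a wide range of levels, from Uqcrc1 at a mean of 4.16 FPKM over the 8 mice to Cox6a1 at 728 FPKM. The 19 tested members with a match had a median log2 fold change of 0.02 between genotypes.

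Mex3a itself checked the labels. It had 269, 236, 327 and 328 counts in the WT mice and 20, 28, 6 and 8 counts in the KO mice, so the genotypes did not overlap. Its level was 13.3 ± 2.10 CPM (counts divided by library size on the usual CPM scale, with library sizes adjusted by TMM; SD, n = 4) in WT and 0.613 ± 0.417 CPM in KO. By edgeR's quasi-likelihood test KO differed from WT by -4.43 ± 0.43 on the log2 scale (± SE, adjusted p 0.0310). The exact two-sided permutation p was 0.0286, the smallest that 4 mice against 4 can give. A fit that blocked on replicate number gave -4.51 with an adjusted edgeR p of 0.126. Leaving out single mice gave log2 fold changes from -4.87 to -4.17 and adjusted edgeR p-values from 0.0271 to 0.214. The adjusted p was above 0.05, so that the call was lost, without WT replicate 1, 3 or 4 or KO replicate 1, 3 or 4.

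Respiratory chain transcripts were abundant in crypts of both genotypes. Of the 92 members, 85 passed the filter on low counts. The 7 that did not were Cox6a2 with 36 counts over the 8 mice, Ndufa4l2 with 15, Cox8b with 10, Ndufs3 with 4, and Cox7b2, Cox8c and a second identifier of Atp5o with 0. The median level of the 85 was 78.8 FPKM over the 8 mice, against 4.58 FPKM over all 16109 genes that passed, and 32 members exceeded 100 FPKM. By complex, the median was 62.9 FPKM for complex I, 127 for complex II, 156.5 for complex III, 144 for complex IV and 97.3 for complex V. The complex I assembly factors, which act on the enzyme only while it is built, had a median of 10.6 FPKM. Summed over all members, the level was 9402 ± 687 FPKM (SD, n = 4) in WT and 9444 ± 1031 FPKM in KO. The members took 1.43, 1.72, 1.58 and 1.45% of all counts in the WT mice and 1.78, 1.69, 1.40 and 1.39% in the KO mice, which overlap.

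**Figure D1:**
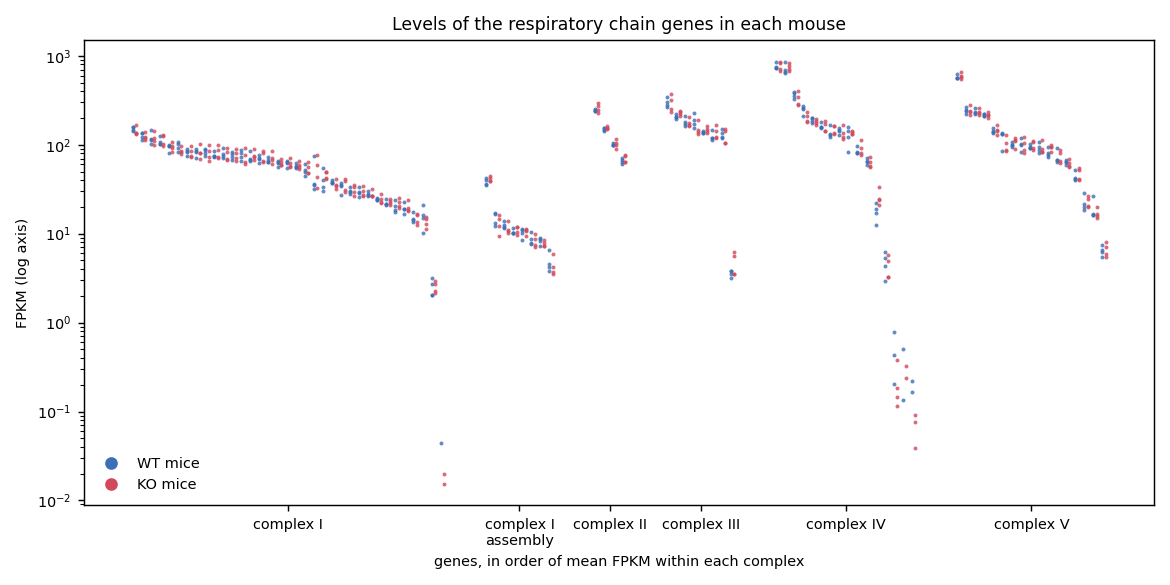
Levels of the respiratory chain genes in each mouse, in FPKM on a log axis, with genes ordered by mean level within each complex and WT mice in blue and KO mice in red; values of 0 are not drawn. Blue and red points overlap for every tested gene drawn, most genes lie between 10 and 300 FPKM, and the low tails hold Ndufs3, Uqcrc1 and the muscle and testis forms of complex IV.

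Across the genotypes the respiratory chain as a whole hardly moved. Of the 85 members tested, 39 had a negative log2 fold change (45.9%, against 53.9% of all genes tested), and the median was 0.01 against -0.02 over all genes. Members with an adjusted p under 0.05 numbered 0 by edgeR, where the background was 0.00621% of all genes, a single gene, Mex3a. DESeq2 also called 0 members at that threshold and 93 genes in all. At an unadjusted p under 0.05, edgeR called 1 member lower in KO, Cox7c, against 3.05% of all genes, and 1 member higher, Cox7a1, against 5.33%; DESeq2 likewise had 2 members at that level. No member had all KO mice below all WT mice (background 1.87%) or all KO mice above them (background 2.17%). These counts moved with single mice. Without KO replicate 1, 61 members had a negative log2 fold change (71.8%, against 53.9% of all genes in that fit), 8 were lower at an unadjusted edgeR p under 0.05 (9.41%, against 5.04%) and 5 did not overlap (5.88%, against 12.3%). The number with a negative value was 22 without KO replicate 4, 23 without WT replicate 2 and 25 without KO replicate 3, against 51.6 to 53.9% of all genes in the fits that left out a mouse. Without WT replicate 1, 5 members were lower at that threshold (5.88%, against 2.67%) and 3 did not overlap (3.53%, against 7.04%). Without WT replicate 2, 3 were higher (3.53%, against 4.38%) and 4 did not overlap (4.71%, against 7.96%). Without WT replicate 3, KO replicate 3 or KO replicate 4, 0 were lower.

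These estimates were also fairly narrow. The log2 fold change lay within 0.2 of 0 for 77 of the 85 members (90.6%), against 64.9% of all genes tested. The 95% interval lay wholly between -0.5 and 0.5 for 73 members and between -1 and 1 for all 85, with a median half-width of 0.25. The spread between WT mice had a median coefficient of variation of 9.18% over the members and 14.4% over all genes. These comparisons were not matched for level: the median was 78.8 FPKM over the members and 4.58 FPKM over all genes tested. The median SE of the log2 fold change was 0.11 and 0.16. Differences of less than about the half-width of an interval were not detectable with 4 mice a genotype.

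**Figure D2:**
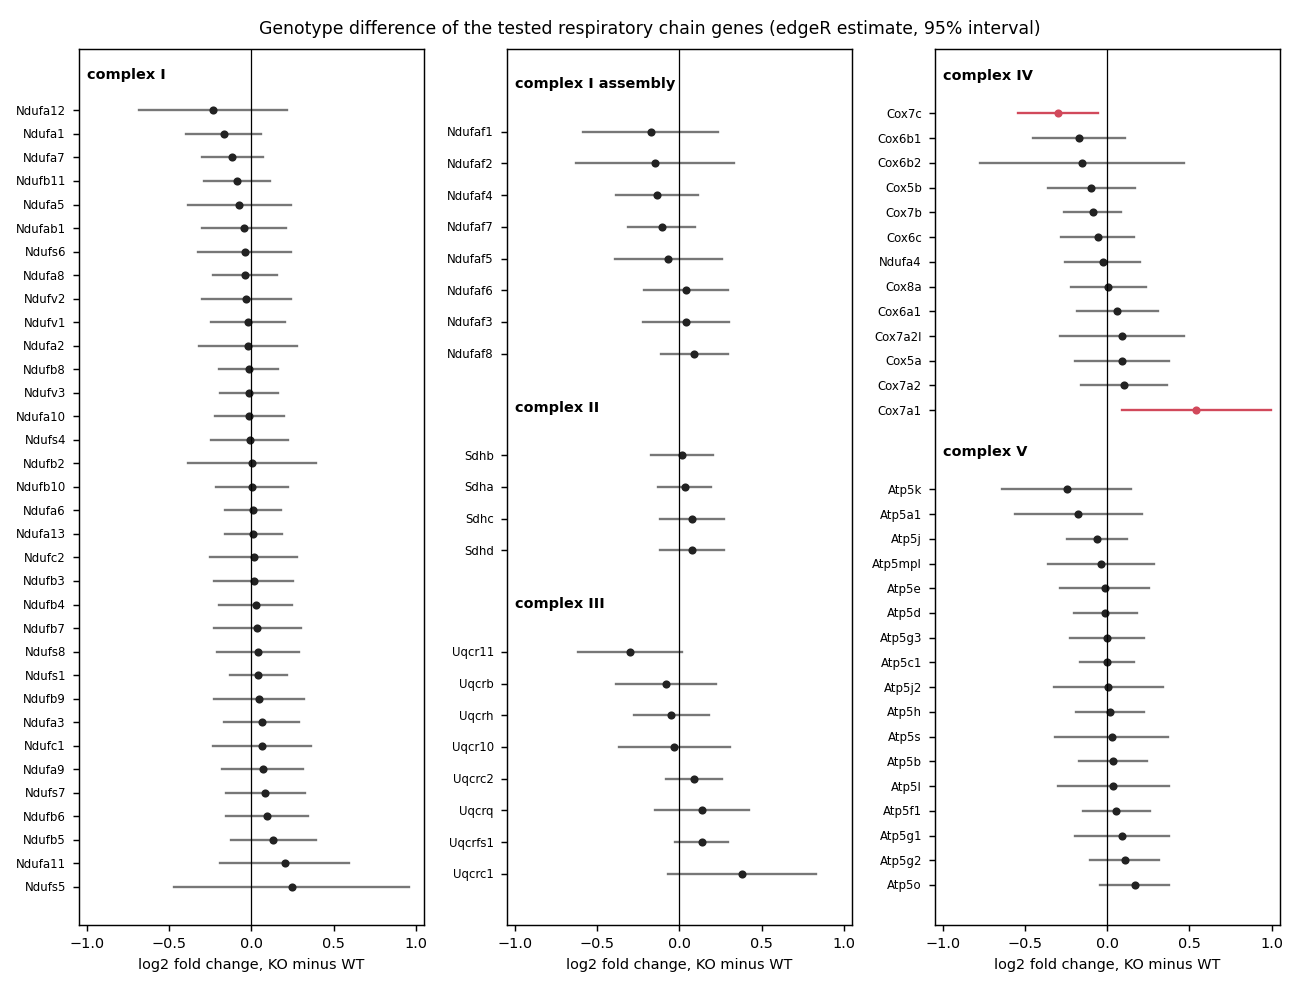
Log2 fold change of KO over WT for 84 of the 85 tested genes, by complex, with points for the edgeR estimate and lines for its 95% interval. Only the intervals of Cox7c and Cox7a1, in red, exclude 0, and each of the other intervals crosses it.

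In complex I, the NADH dehydrogenase, 15 of 35 tested subunits had a negative log2 fold change, the median was 0.01, and 0 of 35 had an unadjusted p under 0.05. The catalytic subunits Ndufv1 and Ndufs1 differed little. Ndufv1, which holds the flavin that takes electrons from NADH, had 190 to 227 CPM in WT and 187 to 242 CPM in KO. Ndufs1, the largest iron-sulfur subunit, had 170 to 197 CPM in WT and 172 to 201 CPM in KO. Their log2 fold changes were -0.02 ± 0.10 and 0.04 ± 0.08 (SE), both smaller than their standard errors.

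The complex I subunit with the smallest p was Ndufa1, a small membrane-arm accessory subunit encoded on the X chromosome. It had 35.4, 39.3, 42.6 and 45.5 CPM in WT and 41.1, 32.9, 35.0 and 36.0 CPM in KO, with a log2 fold change of -0.17 ± 0.10 and an unadjusted p of 0.130 in edgeR (adjusted p 0.682). KO mice 1 and 4 lay within the WT range and the other 2 just below it. Without WT replicate 1 the unadjusted edgeR p was 0.0436 and without KO replicate 1 it was 0.0445. Ndufb2, an accessory subunit, was the lowest tested complex I transcript at 2.49 FPKM. Among the 8 assembly factors 5 had a negative log2 fold change and 0 an unadjusted p under 0.05; their median was -0.09. By FPKM, Ndufaf8 was the highest of them at 39.9 and Ndufaf2 the lowest at 4.55. Of the exonic bases of Ndufaf2, 65.6% also belong to a gene on the opposite strand, so its counts may include that gene's reads.

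Ndufs3, a core subunit that complex I cannot do without, was all but missing from the table. It had 0, 0, 2 and 0 counts in WT and 0, 0, 1 and 1 counts in KO, and was not tested. The gene lies at chr2:90894634-90904827 on the minus strand in GENCODE M21 (GRCm38), and the genes next to it were empty too: C1qtnf4, Kbtbd4, Celf1 and Rapsn had 0 counts in every mouse, which allows at most 3 counts a library. The genes beyond them were well covered, with means of 2877 counts for Mtch2 on one side and 3911 counts for Psmc3 on the other. The table also holds a gene model made by the authors on the patch scaffold CHR_MG191_PATCH, from 90894627 to 90904738 on the same strand and thus over the same positions. That model had 214, 783, 908 and 345 counts in WT and 292, 424, 830 and 460 counts in KO. The counts of the Ndufs3 row are therefore no measure of its expression, and whether reads of the gene were placed on the patch was not tested.

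**Figure D3:**
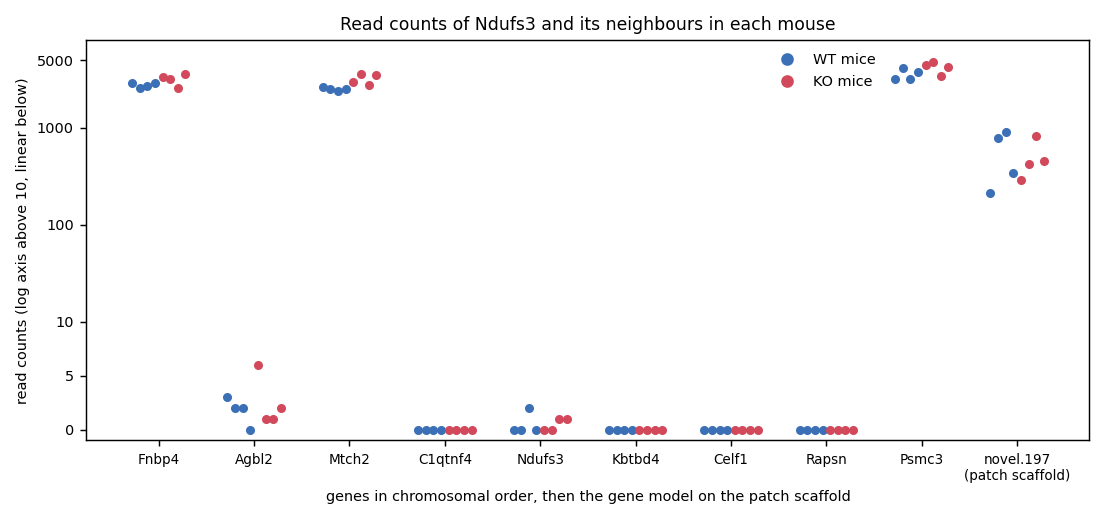
Read counts in each mouse (points, WT blue and KO red) for Ndufs3, its neighbours in chromosomal order and the authors' gene model on a patch scaffold; the axis is linear up to 10 and logarithmic above. Counts are at least 2432 in every mouse for Fnbp4, Mtch2 and Psmc3, at most 6 for the genes between Mtch2 and Psmc3 and for Agbl2, and 214 to 908 for the patch model.

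Complex II, succinate dehydrogenase, also belongs to the citric acid cycle. None of its 4 genes had a negative log2 fold change, the median was 0.06, and none had an unadjusted p under 0.05. Sdha, the flavoprotein that oxidizes succinate, had 616, 648, 645 and 594 CPM in WT and 632, 670, 615 and 643 CPM in KO. Its log2 fold change was 0.03 ± 0.07, with a 95% interval from -0.13 to 0.20. Sdhb, the iron-sulfur subunit, had 222 to 234 CPM in WT and 202 to 260 CPM in KO. The membrane anchors Sdhd and Sdhc were the highest and the lowest of the complex by FPKM, at 252 and 68.0, and had log2 fold changes of 0.08 ± 0.09 each.

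Complex III, the cytochrome bc1 complex, held subunits at both ends of the range. Uqcr11, a small accessory subunit, had 102, 112, 145 and 123 CPM in WT and 122, 93.9, 88.8 and 85.9 CPM in KO. KO mouse 1 stood at the level of WT mouse 4, while the other KO mice lay below all WT mice. KO minus WT was -0.30 ± 0.14 on the log2 scale, at an unadjusted edgeR p of 0.0595 (adjusted p 0.616). That p was 0.0297 without WT replicate 1, 0.00703 without KO replicate 1 and 0.0418 with no filter on low counts. The Uqcr11 promoter window holds an ETS match at chr10:80406871-80406896 (minus strand), in capitals: ctctcctccCCGGAAGtagatgtcaa.

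Of the 8 complex III genes 4 had a negative log2 fold change, the median was 0.03, and none had an unadjusted p under 0.05. The smallest p-values among those with a positive value were those of Uqcrc1 and Uqcrfs1. Uqcrfs1, the Rieske iron-sulfur protein that passes electrons to cytochrome c1, had 280, 301, 282 and 269 CPM in WT and 328, 323, 303 and 292 CPM in KO. Only the lowest KO mouse fell within the WT range. KO minus WT was 0.14 ± 0.07 on the log2 scale, at an unadjusted edgeR p of 0.0876 (adjusted p 0.641), and the unadjusted p was 0.0439 when each library's trend with gene length was removed. Uqcrc1, a core subunit, had 13.5, 16.0, 15.9 and 14.7 CPM in WT and 25.7, 14.5, 14.6 and 23.5 CPM in KO. KO mice 1 and 4 were high and the other 2 KO mice were at the WT level. KO minus WT was 0.38 ± 0.20 on the log2 scale, at an unadjusted edgeR p of 0.0869 (adjusted p 0.640), and the unadjusted p was 0.0314 without KO replicate 2 and 0.0300 without KO replicate 3.

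Levels within complex III were uneven although its subunits are used in equal number. By FPKM, Uqcr10 was the highest at 298 and Uqcrc1 the lowest at 4.16. Its core partner Uqcrc2 stood at 144 FPKM, from 24.2 to 43.9 times the level of Uqcrc1 in the 8 mice, and Cyc1, the cytochrome c1 of the same complex, at 205 FPKM. None of the exonic bases of Uqcrc1 are shared with another gene, and the cause of its low count was not tested.

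Complex IV, cytochrome c oxidase, held both members past the unadjusted threshold, in opposite directions. Cox7c, a small single-span subunit, lies at chr13:86044816-86046904 on the minus strand. It had 245, 287, 307 and 293 CPM in WT and 267, 238, 206 and 208 CPM in KO. WT mouse 1 and KO mouse 1 overlapped, and the other KO mice were below all WT mice. KO minus WT was -0.30 ± 0.11 on the log2 scale, at an unadjusted edgeR p of 0.0201 (adjusted p 0.533), and the exact two-sided permutation p was 0.0571. Leaving out WT replicate 3, KO replicate 3 or KO replicate 4 gave unadjusted edgeR p-values of 0.0733, 0.0582 and 0.0602, and log2 fold changes of -0.25, -0.25 and -0.26.

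The Cox7c counts are uncertain because processed copies of the gene share sequence with it. In its transcripts, 16.2% of all 100-base windows also occur in Gm10012 or Gm12338. Gm12338, only 192 bases long, had 42.3, 40.0, 43.4 and 44.9 CPM in WT and 61.0, 34.7, 44.1 and 32.3 CPM in KO. The sum of the 3 genes was 288, 328, 351 and 339 CPM in WT and 329, 274, 251 and 242 CPM in KO, which overlap, and the log2 ratio of the means was -0.25 for the sum and -0.30 for Cox7c alone.

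Cox7a1, at chr7:30184144-30186078 on the plus strand, encodes the form of subunit 7a known from heart and skeletal muscle. It had 10.4, 6.77, 9.13 and 11.9 CPM in WT and 12.9, 11.4, 18.0 and 13.3 CPM in KO. KO mouse 2 lay just under WT mouse 4, and the other KO mice were above all WT mice. KO minus WT was 0.54 ± 0.20 on the log2 scale, at an unadjusted edgeR p of 0.0237 (adjusted p 0.545), and the exact two-sided permutation p was 0.0571. The unadjusted p was 0.0535 without WT replicate 2 and 0.0750 without KO replicate 3. Among 6 striated muscle markers the summed level was 2.69, 3.08, 3.42 and 2.11 FPKM in WT and 6.60, 4.54, 4.91 and 6.96 FPKM in KO. Acta1, skeletal actin, made up most of that sum at a mean of 3.73 FPKM. It was higher in every KO mouse than in any WT mouse, with a log2 fold change of 1.11 ± 0.22 (unadjusted edgeR p 0.000729, adjusted p 0.429), and Tnnt2, the other marker tested, had 0.46 ± 0.36. The defining markers Ckm, Mb and Myh7 were near 0 with 14, 8 and 2 counts over all mice. The part of these transcripts in the Cox7a1 difference was not tested.

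The paralog pairs of complex IV showed which form crypts used. Cox7a2, the widespread form of subunit 7a, stood at 144 FPKM, from 3.98 to 13.3 times Cox7a1 in the 8 mice, and had a log2 fold change of 0.10 ± 0.12. Cox7a2l, a related protein that joins complexes III and IV, stood at 132 FPKM with a log2 fold change of 0.09 ± 0.17. Cox6a1 stood at 728 FPKM and its muscle form Cox6a2 at 0.282 FPKM. Cox6b1 stood at 347 FPKM and its testis form Cox6b2 at 4.52 FPKM, the lowest tested gene of the complex. Cox8a, the highest member by FPKM at 766, far exceeded the muscle form Cox8b at 0.150 FPKM. Counts give another order, with 79570 for Cox8a and 472839 for Atp5b over the 8 mice. Ndufa4 stood at 162 FPKM and Ndufa4l2, a form known from low oxygen, at 0.0744 FPKM. The testis forms Cox7b2 and Cox8c had 0 counts in all 8 libraries, which allows at most 0.0157 CPM over the 190647268 counts.

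Among the widespread forms and Cox5a and Cox5b, none of the following passed the unadjusted threshold with all 8 mice. The log2 fold changes were 0.06 ± 0.11 for Cox6a1, -0.17 ± 0.13 for Cox6b1, 0.01 ± 0.10 for Cox8a and -0.03 ± 0.10 for Ndufa4. Cox5a and Cox5b, which sit on the inner side of the enzyme, had 0.09 ± 0.13 and -0.10 ± 0.12. Cox5a had 171 to 203 CPM in WT and 162 to 241 CPM in KO, and Cox5b had 207 to 246 CPM in WT and 184 to 264 CPM in KO. Without KO replicate 1, Cox6b1 was -0.29 (unadjusted edgeR p 0.0214) and Cox5b -0.21 (unadjusted edgeR p 0.0444). Over the 13 tested genes of complex IV, 7 had a negative log2 fold change and the median was -0.03.

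**Figure D4:**
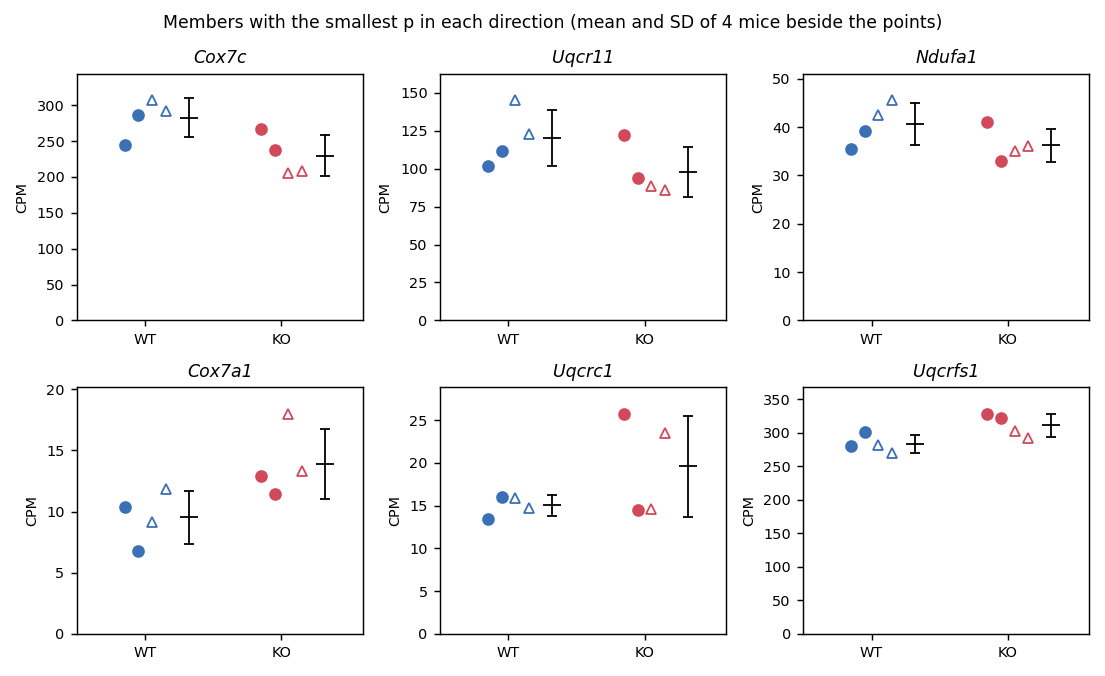
Levels in CPM, on axes that start at 0, of the genes with the 3 smallest p-values in each direction; filled circles are replicates 1 and 2 (Y-linked transcripts), open triangles are replicates 3 and 4 (Xist), and bars beside the points give the mean and SD of 4 mice. For Cox7c, Uqcr11 and Ndufa1 KO mouse 1 lies within the WT range, and for Cox7a1, Uqcrc1 and Uqcrfs1 at least 1 KO mouse does.

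In complex V, the ATP synthase, 8 of 17 tested genes had a negative log2 fold change, the median was 0.01, and none had an unadjusted p under 0.05. Atp5b, the catalytic beta subunit and the most abundant transcript of the complex at 585 FPKM, had 2439, 2390, 2621 and 2390 CPM in WT and 2783, 2509, 2451 and 2340 CPM in KO. Its log2 fold change was 0.04 ± 0.09, with an interval from -0.17 to 0.24. Atp5c1, the gamma subunit that turns inside the catalytic head, had 403 to 429 CPM in WT and 385 to 451 CPM in KO, with a log2 fold change of -0.00 ± 0.07.

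Atp5a1, the alpha subunit, alternates with beta in the same ring, yet stood at 17.9 FPKM, so that Atp5b was 21.1 to 37.3 times higher in the 8 mice. Atp5a1 had 51.6, 51.6, 51.9 and 83.7 CPM in WT and 63.1, 52.2, 49.2 and 47.1 CPM in KO. WT mouse 4 stood far above the other WT mice, and without it the log2 fold change turned from -0.18 to 0.03. The cause of the low level was not tested. Atp5g1, Atp5g2 and Atp5g3 encode the same mature c subunit of the proton-driven ring and stood at 45.5, 104 and 243 FPKM, with log2 fold changes of 0.09 ± 0.13, 0.11 ± 0.09 and -0.00 ± 0.10. Without KO replicate 3, Atp5g2 was 0.18 (unadjusted edgeR p 0.0400) and its genotypes did not overlap. By FPKM, Atp5g3 was 4.51 to 5.94 times Atp5g1 in the 8 mice, so this order held in each of them. The counts over all mice were 42606 for Atp5g1, 33508 for Atp5g2 and 100854 for Atp5g3. The gene lengths used for FPKM were 4912, 1675 and 2181 bases, and the order of Atp5g1 and Atp5g2 depends on them. In Atp5g2, 34.7% of 100-base windows recur in 2 other genes, and its level is uncertain for that reason. Atp5s, known as coupling factor B, was the lowest tested gene of the complex at 6.53 FPKM. Atp5o appears under a pair of identifiers, one of which had 0 counts in all mice and lies over the other.

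Of the 3 partner genes tested outside the name patterns none was lower, their median was 0.08, and none passed the unadjusted threshold. Cox4i1, a complex IV subunit, had a log2 fold change of 0.01 ± 0.09 at 372 FPKM, and Cyc1 had 0.08 ± 0.09. Cycs, the cytochrome c carrier, had 0.21 ± 0.11 at 53.3 FPKM with an unadjusted edgeR p of 0.102, and 22.6% of its 100-base windows recur in 3 other genes, so its counts are uncertain. Of 37 tested assembly factors and chaperones with other names, 14 were lower, none passed an unadjusted p under 0.05 and the median was 0.02. The 13 subunits encoded by the mitochondrial genome varied far more between mice. Their summed level ran from 50990 to 91090 FPKM in WT and from 40370 to 68980 FPKM in KO, their median log2 fold change was -0.17, and mt-Nd6 was lower at an unadjusted edgeR p of 0.0145 (log2 fold change -0.67 ± 0.23, adjusted p 0.518).

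Neighbouring pathways are given for comparison, each by count and median. In the citric acid cycle 5 of 14 genes were lower, the median was 0.06, and Cs, citrate synthase, was higher at an unadjusted edgeR p of 0.0311 (0.21 ± 0.08, adjusted p 0.557). Among carriers and porins 1 of 6 genes was lower, the median was 0.14, and none passed the unadjusted threshold. In glycolysis 2 of 18 genes were lower and the median was 0.17. Pfkp, a phosphofructokinase, and Pgam1, a phosphoglycerate mutase, were higher at unadjusted edgeR p-values of 0.00267 and 0.0265, with log2 fold changes of 0.46 ± 0.11 and 0.17 ± 0.07 and adjusted p-values of 0.518 and 0.548. Of 13 regulators of mitochondrial gene expression 8 were lower, the median was -0.06 and 2 passed the unadjusted threshold. These were Esrrg, a nuclear receptor of oxidative metabolism, at -0.52 ± 0.14 (unadjusted edgeR p 0.00403) and Myc at -0.42 ± 0.14 (unadjusted edgeR p 0.0125), each with an adjusted p of 0.518. The factors whose motifs were searched differed little, with 0.04 ± 0.09 for Nrf1, 0.02 ± 0.09 for Gabpa and 0.02 ± 0.06 for Yy1.

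What the members shared was their movement from mouse to mouse, which the genotype did not order. For each mouse the deviation of every member from its mean over the 8 mice, in log2 CPM, was taken and its median over the 85 members recorded. The medians were -0.10, 0.13, -0.0005 and -0.04 in WT and 0.19, 0.05, -0.12 and -0.14 in KO, while those of all 16109 genes lay between -0.004 and 0.009. In KO mouse 1, 80 of 85 members lay above their means and in WT mouse 2, 73 did, whereas in WT mouse 1, KO mouse 3 and KO mouse 4 only 7, 8 and 9 did. The same mice were high and low in the larger complexes. The medians of complex V were -0.07, 0.12, -0.02 and -0.04 in WT and 0.21, 0.01, -0.12 and -0.15 in KO, and those of complex I were -0.11, 0.12, 0.001 and -0.04 in WT and 0.21, 0.03, -0.11 and -0.12 in KO. The members thus cannot be counted as independent observations of the genotype.

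**Figure D5:**
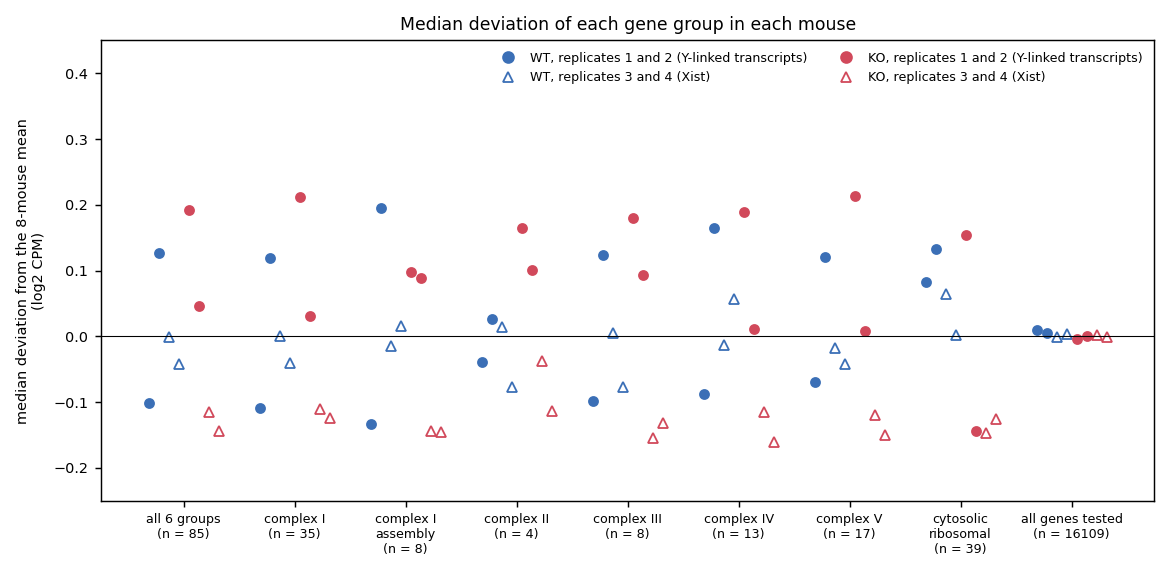
Median deviation from the 8-mouse mean, in log2 CPM, of each gene group in each mouse; WT is blue and KO red, filled circles are replicates 1 and 2 (Y-linked transcripts) and open triangles replicates 3 and 4 (Xist). In each complex KO mouse 1 lies above 0 and KO mice 3 and 4 below it, while the medians of all genes tested stay between -0.004 and 0.009.

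Gene length and cell type markers were set beside these medians. Members are short: when all genes tested were divided by length into 5 groups of equal size, 43 of 85 members fell in the shortest, whose longest gene spans 1751 bases. In 1380 other protein-coding genes of that group the medians were -0.06, 0.09, -0.01 and 0.01 in WT and 0.10, 0.002, -0.03 and -0.04 in KO. The 42 longer members had medians of -0.07, 0.12, -0.004 and -0.05 in WT and 0.19, 0.04, -0.11 and -0.14 in KO. Those of the 43 short members were -0.11, 0.13, 0.02 and -0.02 in WT and 0.19, 0.05, -0.12 and -0.15 in KO. The summed level of 12 enterocyte markers was 1256, 992, 1480 and 2769 FPKM in WT and 1452, 2007, 5844 and 3429 FPKM in KO. It was highest in KO mice 3 and 4 and second lowest in WT mouse 1, and the members were low in each of these mice. All 12 enterocyte markers were higher in KO (4 at an unadjusted edgeR p under 0.05) and all 10 stem cell markers lower (6 at that threshold), while 7 of 10 proliferation markers were lower and none passed it. The 9 Paneth cell markers were all lower and varied widely, from 12390 to 84020 FPKM in sum. Of 9 immune markers 8 were higher in KO (2 at that threshold), with sums of 6.84, 8.99, 7.87 and 11.1 FPKM in WT and 9.59, 9.05, 16.8 and 14.9 FPKM in KO. All 7 goblet cell markers were higher (2 at that threshold), with sums of 1929 to 2835 FPKM in WT and 2431 to 3544 FPKM in KO. The 4 tuft cell markers tested were all lower and none passed it, and of 7 enteroendocrine markers 5 were lower and 1 was higher at that threshold. Of 39 cytosolic ribosomal protein genes 37 were lower in KO, 5 of them at an unadjusted edgeR p under 0.05, with a median log2 fold change of -0.13. Those 5 were Rpl22, Rpl32, Rpl35, Rpl37 and Rpl38, with log2 fold changes from -0.35 (Rpl38) to -0.21 (Rpl35) and adjusted edgeR p-values of at least 0.518. Their mouse medians were 0.08, 0.13, 0.06 and 0.002 in WT and 0.15, -0.14, -0.15 and -0.13 in KO, and differed from the members most in KO mouse 2. The part of length and of cell composition in the members' levels was not tested.

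Between the mice that carried Xist and those that carried Y-linked transcripts, 60 of 85 members had log2 fold changes of opposite sign. That count was not made over all genes. This contrast was added after the values had been seen, and rests on 2 mice per genotype in each set. In the Y-linked set 9 of 85 members had a negative log2 fold change (background 52.9%) and the median was 0.11. The mouse medians of that set were -0.10 and 0.13 in WT and 0.19 and 0.05 in KO, so KO mouse 2 lay below WT mouse 2 and only KO mouse 1 lay above both WT mice. In the Xist set 67 of 85 had a negative one (background 51.2%) and the median was -0.10. KO minus WT was more positive, or less negative, in the Y-linked set than in the Xist set for 77 of 85 members (90.6%), against 47.0% of all genes. At an unadjusted p under 0.05 for this difference edgeR called 8 members in that direction (9.41%, background 1.71%) and 0 in the other (background 2.11%), and at an adjusted p under 0.05 it called 0 members and 0 genes, with 0.974 the smallest adjusted p of a member. The members called were Cox7c, Cox6b1 and Cox5b of complex IV, Uqcr11 and Uqcrb of complex III, Ndufs6 and Ndufc1 of complex I and Atp5k of complex V. Since members move together and 2 KO mice stand on either side, this count cannot be read as 8 separate observations.

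Within each set, 9 members were lower in KO among the Xist mice at an unadjusted edgeR p under 0.05 (10.6%, background 2.81%) and 1, Ndufa11, was higher (background 6.21%). The lower ones were Cox7c, Cox6b1, Cox7b, Cox5b, Uqcrb, Uqcr11, Atp5k, Atp5a1 and Ndufa1. Among the Y-linked mice 0 members were lower (background 2.83%) and 1, Ndufc1, was higher (background 3.60%). For Cox7c the log2 fold change was -0.53 in the Xist set and -0.07 in the Y-linked set, and for Uqcr11 it was -0.62 and 0.02. For Cox7a1 both sets gave a positive value, 0.57 and 0.50. The sets also carry the replicate numbers 3 and 4 against 1 and 2, so sex and whatever else those numbers share cannot be told apart.

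The 3′UTRs of the members were searched for the bipartite MEX-3 recognition element, since Mex3a is the deleted gene. The pattern searched was a block ending in AG with any letter but C first and G or T second, then at most 8 bases of any kind, then a block of T, any letter but G, and TA, on the transcript's strand. An element was present in 32 of 84 members with a 3′UTR (38.1%) and in 75.3% of all 13018 genes tested that have one. Members have short 3′UTRs, with a median of 197 bases against 1185. Among 3′UTRs of at most 200 bases the shares were 16.3% of members and 16.5% of all genes, and among longer ones they were 61.0% and 81.6%, with median 3′UTR lengths of 502 and 1355 bases. The median log2 fold change was 0.01 both for the 32 members with the element and for the 52 without it.

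The elements shown are those of Uqcrfs1 and Atp5b, each the only match in that 3′UTR, with the outer letter blocks in capitals, and they show how loose the pattern is.
Uqcrfs1 (chr13:30540475-30540487, minus strand, from base 244 of 423): ATAGctaatTCTA
Atp5b (chr10:128090236-128090245, plus strand, from base 117 of 272): AGAGtaTTTA
Cox7c, Uqcr11 and Cox7a1, which had the smallest p-values in their directions, have 3′UTRs of 114, 189 and 111 bases with no match. No match says only that these letters are not in that stretch.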

How the data were processed

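RNA from intestinal crypts of 4 KO and 4 littermate WT mice was analysed. Each mouse has unnormalized counts of reads per gene, deposited with FPKM values of the same genes. The deposited FPKM equal counts divided by gene length and by a library size that differs from the total by a factor of 0.951 to 1.04 in each mouse. That length equals the exonic bases of all transcripts in GENCODE M21 for 88 of 92 members, so the order of genes by FPKM depends on the annotation. The submitters' processing notes list CASAVA, HISAT2 2.0.5 and featureCounts 1.5.0-p3; the genome build is not given in the sources used here, and 88 of 92 member genes have the start and end of GENCODE M21 (GRCm38). Columns of the authors' own comparison (fold change and p-value) were not used.

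Counts were fitted with edgeR 4.0.16 in R 4.3.3 (filterByExpr with a minimum count of 10, TMM, quasi-likelihood test, genotype as the only term, all 8 mice) over 16109 genes, with Benjamini-Hochberg adjustment. Standard errors and 95% intervals come from that fit. The limit of 3 counts for a count of 0 covers counting error only. Single genes were also tested by exact permutation over 70 assignments of mice (scipy 1.17.1). The scripts were tested on simulated data. The alternatives were DESeq2 1.42.0, limma 3.58.1 on log2(FPKM + 1) and log2(FPKM + 0.1), other scalings and filters, a length trend, an Xist/Y term, the replicate number as a block and leaving out each mouse.

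Deviations of same-numbered mice from their group means correlated at 0.129, 0.501, 0.141 and 0.294 over all genes. Over the members the values were 0.0888, 0.711, -0.0115 and 0.270, and 3 of 4 mice matched their own number best over all genes. The labels do not state pairs, and same-numbered mice also share the Xist or Y-linked set, so pairing was not established. The main fit has genotype only, and the replicate number served as a block in alternative fits. Replicates differed by more than sampling noise (a chi-square of 23.4 to 86.3 for each degree of freedom between pairs). The labels do not state the sex of the mice, and the Xist and Y-linked sets were read from the counts. Genes named are catalytic subunits, members past an unadjusted p of 0.05 and the 3 with the smallest p in each direction, members whose genotypes do not overlap (0), paralog pairs, the highest and lowest gene of each complex, Mex3a, Cox4i1, Cyc1, Cycs and genes of the pathway lists past the unadjusted threshold; marker lists are given by counts and sums, and others were named after their values were seen. A gene that this rule would name is not reported here and is left out of the figures, while counts and medians include it. The members and lists were chosen with earlier results of these data known. Promoters are from RefSeq and 3′UTRs from GENCODE M21; figures were drawn with matplotlib 3.10.9.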

Additional observations from a re-analysis of the deposited data

Results flagged for a closer look

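Among the named genes, 4 had a single WT mouse that stood apart from the other 3 by Dixon's 95% criterion for 4 values. Chance marks about 1 in 20 groups, or 3.7 of the 74 groups examined, so 4 is about the chance number. The groups examined were those of the named genes only. Atp5a1 was 83.7 CPM in WT mouse 4 and 51.6 to 51.9 CPM in the others. WT mouse 2 was the high one for Cox4i1 (653 CPM, others 550.0 to 556), Cox5a (203 CPM, others 171 to 173) and Cox8a (473 CPM, others 397 to 405), the mouse in which 73 of 85 members lay above their means.

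The genotype effect differed between the Y-linked and the Xist set for 5 of the 40 named genes, at an unadjusted edgeR p under 0.05. None of them passed an adjusted p under 0.05. Of all genes tested, 1.71% passed the unadjusted threshold with a positive difference, as these 5 had, and 2.11% with a negative one. Some genes were named for a small p in these same data, so the list is no neutral sample. The difference of the log2 fold changes was 0.51 for Cox5b (0.15 and -0.36, unadjusted edgeR p 0.0164), 0.43 for Cox6b1 (0.03 and -0.40, unadjusted edgeR p 0.0465), 0.46 for Cox7c (-0.07 and -0.53, unadjusted edgeR p 0.0222) and 0.64 for Uqcr11 (0.02 and -0.62, unadjusted edgeR p 0.0154). For Mex3a it was 2.19 (-3.60 and -5.79, unadjusted edgeR p 0.000322), from 20 and 28 counts in the KO mice with Y-linked transcripts and 6 and 8 in those with Xist.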

How the results depend on the processing

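Members with an adjusted p under 0.05 numbered 0 under every alternative run. The number lower in KO at an unadjusted p under 0.05 was 2 with no filter on low counts (Cox7c and Uqcr11). The number higher was 2 with the length trend removed (Cox7a1 and Uqcrfs1) and 2 with that trend removed and the replicate block (Cox7a1 and Ndufa11). In both directions together, 2011 of 31255 genes passed that threshold with no filter. With the length trend removed 1375 of 16109 did, and with the block as well 1891 of 16109. With the length trend removed, without or with the block, 2 members did not overlap between genotypes (Uqcrfs1 and Cox7a1). The share of all genes without overlap was not computed for these fits. In the main fit it was 1.87% with KO below and 2.17% with KO above. Leaving out single mice gave 0 to 8 members lower, 1 to 3 higher, 22 to 61 with a negative log2 fold change and 0 to 5 with no overlap (over all genes 2.17 to 5.04%, 2.99 to 7.94%, 51.6 to 53.9% and 5.58 to 12.3%), where KO replicate 1 set the 8 and the 61 and KO replicate 4 the 22. Median log2 fold changes moved by less than the spread between WT mice under each of these alternatives and without any single mouse. Among mice with Y-linked transcripts only, an alternative chosen after seeing the data, 0 members were lower, 9 had a negative value and the median was 0.11; among mice with Xist only, 9 were lower, 67 were negative and the median was -0.10. Mex3a was -4.51 with the replicate block (adjusted p 0.126), -4.51 with the block and the length trend removed (adjusted p 0.140), -3.59 in limma on log2(FPKM + 0.1) (adjusted p 0.0937), -1.56 in limma on log2(FPKM + 1), where the pseudocount shrinks a low gene's fold change (adjusted p 0.00771), and -4.87 to -4.17 without single mice (fits that pool the spread). Atp5a1 turned to 0.031 without WT replicate 4 and was -0.27 at the lowest without another mouse. The replicate block by itself changed no other call among the members, Cox4i1, Cyc1 and Cycs, and 0 members passed the adjusted threshold with it. The calls of the other list genes were not compared with it, and 1815 of 16109 genes passed the unadjusted threshold under the block. The block and the Xist/Y term leave the overlap of genotypes unaltered, so it was not recomputed for them, and Mex3a has no value with at least 10 counts in every mouse.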
